A study of Mus musculus with 9 samples.

Results

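The genes described here are 40 genes of endothelium, the cell layer that lines blood and lymph vessels, out of 55286 genes in the tables. They were chosen by name as endothelial genes, with earlier results of these data known. They fall into 15 surface and junction proteins, 9 receptors and signalling proteins, 3 secreted proteins, 4 arterial genes, 2 lymphatic genes and 7 transcription factors. All 40 passed the filter on low counts, which left 15158 genes to test. RNA was sequenced from wild-type mouse lung in 3 groups of 3 libraries. EPZ5676 explants were lungs taken at E11.5 (a stage in embryonic days, when airway budding is under way) and kept in culture for 72 h with EPZ5676, a small molecule that blocks DOT1L, the methyltransferase of lysine 79 on histone H3. Control explants were cultured for the same 72 h without it, and fresh lung was taken at E11.5. No uncultured lung of the age reached after those 72 h was included. Differences between explants and fresh lung may therefore come from culture or from the added time, which cannot be told apart. The dose of EPZ5676 and the strain are not given in the sources used here. Whole lungs were used, so each library mixed endothelium with epithelium, mesenchyme and blood cells. Nothing in the labels says that the 3 libraries of a group were made from different embryos or cultures, and the p-values reflect library-to-library spread that may be technical.

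Endothelial cells bind vascular endothelial growth factor (VEGF) through the receptors encoded by Kdr, Flt1 and Flt4. They bind angiopoietins through Tek with its partner Tie1, and apelin through Aplnr. Junction proteins such as VE-cadherin (Cdh5) and PECAM-1 (Pecam1) hold the cells together, and Notch signals through the ligand gene Dll4 help set arterial fate. Transcription factors of the ETS family (Erg, Fli1, Ets1) and SOX family (Sox7, Sox17, Sox18) maintain the endothelial programme, while Prox1 specifies lymphatic endothelium. In the embryonic lung a capillary plexus surrounds the branching airway buds.

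The regulatory sequences at the start of these genes were searched for the letters that endothelial transcription factors are known to bind. RefSeq promoters (GRCm38.p6, 250 bases before to 50 bases after the start site) were matched for 23 of the 40 genes. Both strands were searched for the ETS motifs AGGAAG and CCGGAA, the SOX motif AACAAT and the GATA motif AGATAA, none of which overlapped another in the promoters shown. AGGAAG was present in 13 of the 23 promoters (56.5%), against 9498 of 27025 promoters of the same length in all (35.1%). The other ETS motif, the SOX motif and the GATA motif were each present in 2 of the 23 (8.7%), against 15.2%, 10.9% and 11.4% of all promoters. Of the genes with a matched promoter, AGGAAG was present for 10 of the 14 called lower in control explants and for 3 of the 9 that were not, a description for which no test was made. Flt1 (chr5:147725962-147726261, minus strand) and Tek (chr4:94739039-94739338, plus strand) are shown as receptor genes that fell in both cultures. Esm1 (chr13:113209409-113209708, plus strand) and Dll4 (chr2:119325534-119325833, plus strand) are shown as genes that did not pass the test in either culture. All are GRCm38.p6, 5′ to 3′ on the gene's own strand, with motif matches in capitals (ATTGTT is AACAAT read on the other strand).
Flt1: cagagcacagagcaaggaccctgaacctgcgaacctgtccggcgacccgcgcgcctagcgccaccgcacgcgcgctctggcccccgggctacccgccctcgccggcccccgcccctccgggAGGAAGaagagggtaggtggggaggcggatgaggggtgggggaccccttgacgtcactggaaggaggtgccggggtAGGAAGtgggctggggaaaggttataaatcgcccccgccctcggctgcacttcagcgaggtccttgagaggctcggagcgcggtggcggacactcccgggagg
Tek: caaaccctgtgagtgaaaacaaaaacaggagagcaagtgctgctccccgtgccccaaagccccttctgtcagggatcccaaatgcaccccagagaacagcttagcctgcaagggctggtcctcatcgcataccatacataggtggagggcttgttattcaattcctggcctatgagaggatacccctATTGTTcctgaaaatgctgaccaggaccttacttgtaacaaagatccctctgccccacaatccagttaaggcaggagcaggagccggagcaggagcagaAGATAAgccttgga
Esm1: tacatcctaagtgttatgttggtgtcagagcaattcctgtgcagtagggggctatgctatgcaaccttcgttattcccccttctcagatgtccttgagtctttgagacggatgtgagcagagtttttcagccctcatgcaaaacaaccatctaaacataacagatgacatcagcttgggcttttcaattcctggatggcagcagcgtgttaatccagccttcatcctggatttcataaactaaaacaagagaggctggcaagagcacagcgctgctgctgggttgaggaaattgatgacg
Dll4: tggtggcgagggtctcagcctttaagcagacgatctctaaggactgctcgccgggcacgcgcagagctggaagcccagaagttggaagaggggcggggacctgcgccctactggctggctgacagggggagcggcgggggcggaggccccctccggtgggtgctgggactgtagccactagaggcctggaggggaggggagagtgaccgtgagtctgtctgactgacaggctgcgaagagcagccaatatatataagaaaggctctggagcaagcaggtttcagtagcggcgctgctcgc
The Flt1 promoter held 2 AGGAAG matches, and that of Tek held 1 SOX match and 1 GATA match. None of the 4 motifs was found in the Esm1 and Dll4 windows.

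The libraries held 6509563 to 9861452 counts. Levels are given as deposited TPM (an abundance scaled for transcript length and depth), and log2 fold changes come from counts, ± SE. A gene is said to have risen or fallen where its adjusted p was under 0.05 by edgeR's quasi-likelihood test over all 15158 genes, and n is 3 libraries a group throughout. Control 1 stood apart by transcripts of other organs: the summed level of 10 liver genes was 229.7 TPM there, against 1.3 to 1.8 TPM in EPZ5676 explants, at most 2.4 TPM in the other control explants and 4.3 to 24.7 TPM in fresh lung. Its 10 heart muscle genes summed to 221.6 TPM, against 79.3 to 93.3 TPM in EPZ5676 explants, 52.6 and 64.7 TPM in the other control explants and 54.4 to 114.8 TPM in fresh lung. Lung identity was present in all 9 libraries, with Nkx2-1, the transcription factor of lung epithelium, at 71.7 to 96.6 TPM in explants and 30.1 to 38.7 TPM in fresh lung.

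Most of the endothelial genes were lower in cultured explants than in fresh E11.5 lung. The 40 genes summed to 289.88, 171.25 and 194.85 TPM in EPZ5676 explants 1 to 3, to 341.35, 197.5 and 117.66 TPM in control explants 1 to 3, and to 701.37, 703.67 and 662.1 TPM in fresh lung 1 to 3. Every explant library thus lay below the fresh ones, at 17.1% (Control 3) to 49.5% (Control 1) of the fresh mean. In EPZ5676 explants 29 of the 40 genes were lower than in fresh lung and 0 higher, where 17.9% and 22.1% of all genes tested were lower and higher. In control explants 27 were lower and 0 higher, where 16.6% and 21.1% of all genes were. The median log2 fold change of the 40 genes was -2.04 in EPZ5676 explants and -1.90 in control explants, against 0.02 over all genes in each. Both sets of explants were compared with the same 3 fresh libraries. The counts describe a list chosen with earlier results known and are no independent support. TPM and CPM are shares of a library, so they also fall where RNA from other cells grows. In these bulk samples that growth, fewer endothelial cells and less RNA per endothelial cell cannot be told apart.

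The falls were large. All 29 and all 27 were at least 2-fold, which holds for 4.58% and 4.39% of all genes, and 20 in EPZ5676 explants and 17 in control explants were at least 4-fold, against 1.53% and 1.42% of all genes. By CPM (counts scaled to library size), the 3 libraries of EPZ5676 explants all lay below the 3 of fresh lung for 30 genes, against 27.4% of all genes, and above them for 0, against 29.9%. The control explants all lay below fresh lung for 32 genes, against 24.9% of all genes, and above for 0, against 26.5%. Transcripts were still present: the defining genes Pecam1, Cdh5, Kdr, Tie1 and Erg were detected in all 9 libraries, so the genes were reduced rather than absent.

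**Figure D1:**
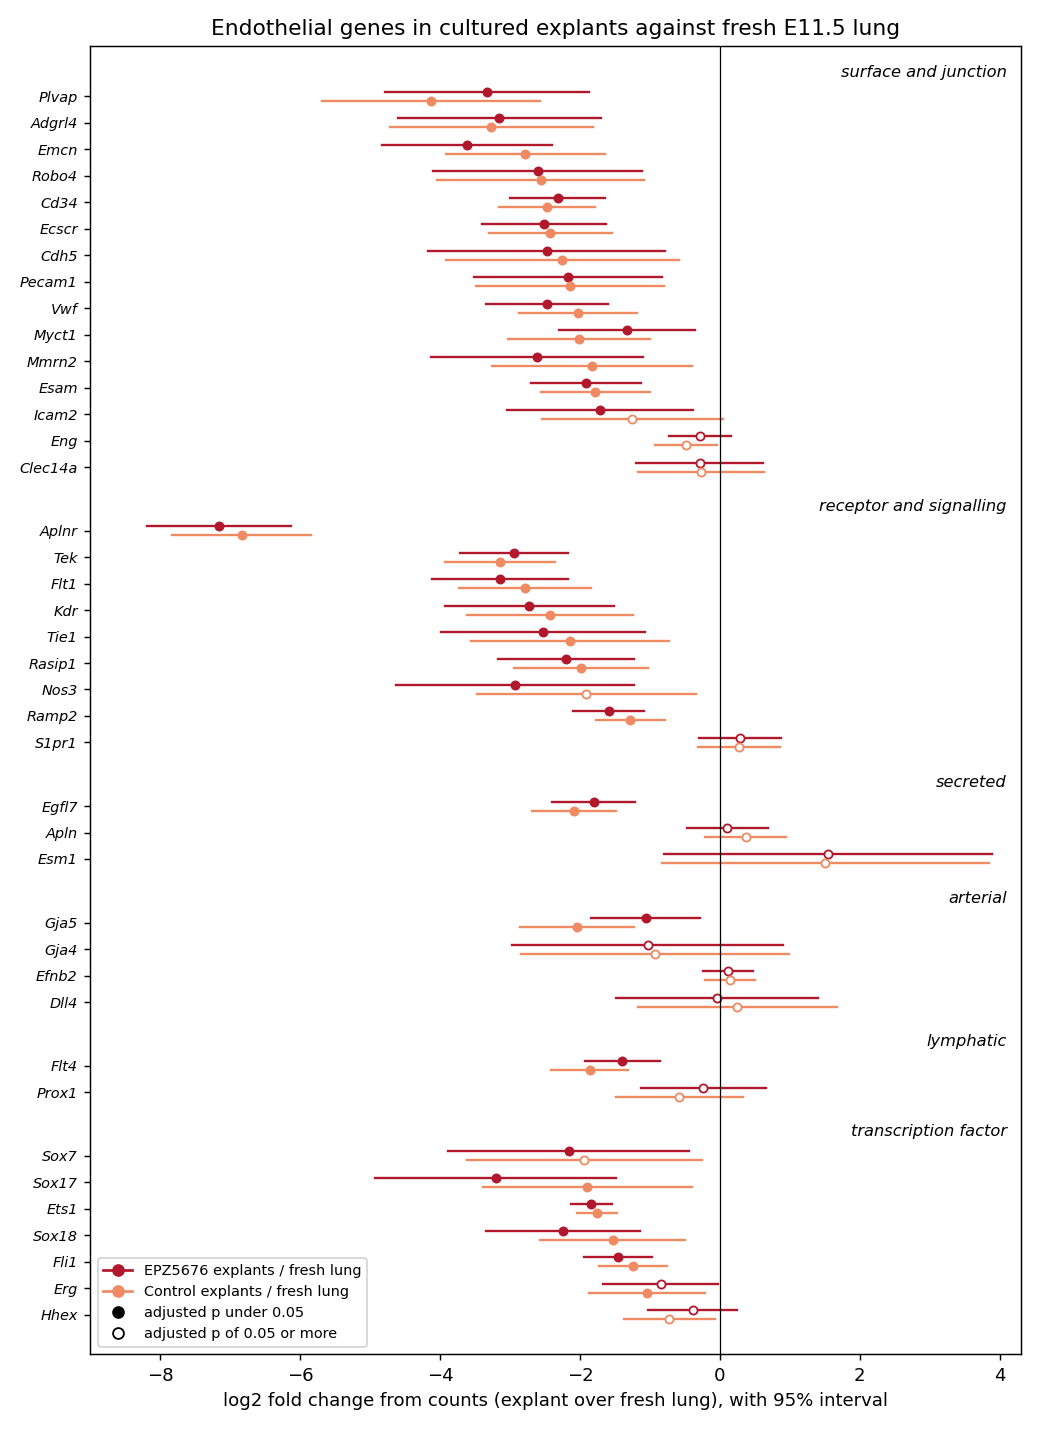
Log2 fold change from counts with 95% interval (x axis) of the 40 endothelial genes, grouped by role, in EPZ5676 explants (dark red) and control explants (orange), each over fresh E11.5 lung. Filled points passed the adjusted threshold of 0.05. Most points lie left of 0, Aplnr is far out near -7, and Esm1, S1pr1, Apln and Efnb2 lie right of 0 in both cultures with open points.

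Among the receptors and signalling proteins 8 of 9 fell in EPZ5676 explants (median log2 fold change -2.72) and 7 of 9 in control explants (median -2.14). Of all genes 17.9% and 16.6% fell. Aplnr, the receptor for apelin (chromosome 2, 85136225 to 85139923, GRCm38), was nearly gone. It had 4, 2 and 3 expected counts in EPZ5676 explants, 11, 0 and 1 in control explants, and 479, 356 and 348 in fresh lung, where it was at 31.15, 25.76 and 22.91 TPM. It showed a log2 fold change of -7.16 ± 0.46 in EPZ5676 explants (edgeR adjusted p = 5e-06) and -6.84 ± 0.45 in control explants (adjusted p = 7.3e-06), 143-fold and 115-fold lower. The fold rests on very few counts in culture, and 11 of the 12 control counts were in Control 1; without that library the log2 fold change in control explants was -9.28. Every explant library lay far below every fresh one.

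Kdr, the main signalling receptor for VEGF, was at 6.94, 2.86 and 4.67 TPM in EPZ5676 explants, 11.26, 4.78 and 1.71 TPM in control explants and 29.32, 35.30 and 31.52 TPM in fresh lung. The change on the log2 scale was -2.72 ± 0.52 in EPZ5676 explants (edgeR adjusted p = 0.00479) and -2.43 ± 0.51 in control explants (0.00794; -3.19 without Control 1). No library of the explants overlapped the fresh ones. Flt1, which binds VEGF and limits its signal, fell by 3.15 ± 0.43 and 2.78 ± 0.42 on the log2 scale in EPZ5676 and control explants (edgeR adjusted p = 4.54e-04 and 9.1e-04), and in control explants by 3.40 without Control 1. Tek, the angiopoietin receptor, was at 1.45, 2.21 and 2.20 TPM in EPZ5676 explants, 2.98, 1.01 and 0.82 TPM in control explants and 14.44, 14.09 and 16.40 TPM in fresh lung. Its levels were close within the EPZ5676 explants, and its log2 fold change was -2.95 ± 0.35 there (edgeR adjusted p = 1.57e-04) and -3.15 ± 0.35 in control explants (1.42e-04; -3.86 without Control 1).

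Tie1, an orphan receptor that partners TEK, was at 4.58, 1.37 and 2.38 TPM in EPZ5676 explants, 7.11, 3.07 and 0.59 TPM in control explants and 16.41, 17.32 and 14.42 TPM in fresh lung. The fall was -2.53 ± 0.63 in EPZ5676 explants (edgeR adjusted p = 0.0146) and -2.14 ± 0.61 in control explants (0.0269; -3.03 without Control 1). The call was lost without EPZ5676 3 in the first comparison (adjusted p = 0.0569), and without any single fresh library or Control 2 in the second (up to 0.0799). Ramp2, a partner of the adrenomedullin receptor, had the smallest fall called in this group. It was at 15.67, 15.28 and 12.52 TPM in EPZ5676 explants, 19.26, 13.28 and 10.31 TPM in control explants and 51.18, 45.18 and 46.51 TPM in fresh lung, with log2 fold changes of -1.59 ± 0.23 and -1.28 ± 0.22 (edgeR adjusted p = 3.79e-04 and 0.00146). Its exons overlap those of Vps25 on the same strand, so some reads may belong to that gene. Rasip1, needed for vessel lumen formation, fell by 2.20 and 1.99 in EPZ5676 and control explants (-2.58 without Control 1 in control explants).

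S1pr1, a receptor for the lipid sphingosine phosphate, did not pass the test in either culture. It was at 8.95, 4.63 and 7.91 TPM in EPZ5676 explants, 9.89, 7.19 and 4.05 TPM in control explants and 6.54, 6.12 and 5.07 TPM in fresh lung, so that the groups overlapped. Its log2 fold change was 0.28 ± 0.27 in EPZ5676 explants (edgeR adjusted p = 0.425) and 0.27 ± 0.27 in control explants (0.452). Nos3, the nitric oxide synthase of endothelium, was at 0.81, 0.05 and 0.54 TPM in EPZ5676 explants, 2.01, 0.75 and 0.10 TPM in control explants and 3.59, 4.15 and 3.21 TPM in fresh lung. It fell in EPZ5676 explants (log2 fold change -2.93 ± 0.76, edgeR adjusted p = 0.0127; -3.54 without EPZ5676 1) and had -1.91 ± 0.70 in control explants (0.0555), where it passed without Control 1 (-3.00) or EPZ5676 2.

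Of the 15 surface and junction genes 13 fell in EPZ5676 explants (median log2 fold change -2.47) and 12 in control explants (median -2.14). Over all genes the shares that fell were 17.9% and 16.6%. Cdh5, the adhesion protein of endothelial junctions, was at 13.99, 3.09 and 5.61 TPM in EPZ5676 explants, 18.31, 6.36 and 2.03 TPM in control explants and 40.56, 43.95 and 41.94 TPM in fresh lung. The fresh libraries were close to each other, while the highest explant library was several times the lowest in each culture. It showed a log2 fold change of -2.48 ± 0.71 in EPZ5676 explants (edgeR adjusted p = 0.0307; -3.21 without EPZ5676 1) and -2.25 ± 0.70 in control explants (0.0424; -3.23 without Control 1). With single libraries left out the adjusted p reached 0.099 and 0.115, and the call was lost in 5 and 6 of 9 fits. Pecam1, an adhesion molecule on all endothelium and on platelets, was at 10.82, 4.25 and 6.51 TPM in EPZ5676 explants, 13.70, 7.07 and 1.93 TPM in control explants and 39.27, 29.73 and 29.94 TPM in fresh lung. It fell by 2.17 ± 0.58 and 2.14 ± 0.58 on the log2 scale (edgeR adjusted p = 0.0202 and 0.0219; -2.85 in control explants without Control 1), and the calls were lost without EPZ5676 2 or 3 (up to 0.069) and without fresh 2, fresh 3 or Control 2 (up to 0.0648).

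The surface genes also include sialomucins and a diaphragm protein. Emcn was at 3.92, 0.77 and 2.47 TPM in EPZ5676 explants, 7.74, 5.58 and 0.68 TPM in control explants and 33.62, 33.96 and 24.92 TPM in fresh lung, with log2 fold changes of -3.61 ± 0.54 and -2.78 ± 0.51 (edgeR adjusted p = 7.53e-04 and 0.00251). Plvap, which forms the diaphragms of endothelial pores, was at 3.62, 0.81 and 0.47 TPM in EPZ5676 explants, 2.06, 0.38 and 0.23 TPM in control explants and 17.26, 18.04 and 15.26 TPM in fresh lung. It had the largest fall of the surface genes in control explants, -4.14 ± 0.69 (edgeR adjusted p = 0.00166; -5.62 without Control 1), with -3.33 ± 0.65 in EPZ5676 explants (0.00317; -4.62 without EPZ5676 1). Cd34, a sialomucin also found on blood progenitors and fibroblasts, was at 12.95, 8.02 and 10.49 TPM in EPZ5676 explants, 14.54, 8.96 and 3.83 TPM in control explants and 53.84, 48.77 and 54.86 TPM in fresh lung. Its fall of 2.32 ± 0.30 and 2.47 ± 0.31 on the log2 scale (edgeR adjusted p = 3.43e-04 and 3.02e-04) stood in every fit that left out a library.

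The other surface genes that fell in both cultures were Esam, Robo4, Vwf, Mmrn2, Ecscr, Myct1 and Adgrl4. Their log2 fold changes ran from -3.15 (Adgrl4, an adhesion receptor) to -1.32 (Myct1) in EPZ5676 explants and from -3.27 (Adgrl4) to -1.78 (Esam, a junction protein) in control explants. Vwf, the clotting protein of endothelium and platelets, was at 0.41 to 1.68 TPM in EPZ5676 explants, 1.09 to 1.38 TPM in control explants and 3.59 to 4.46 TPM in fresh lung. Without Control 1 the falls in control explants were -3.70 for Robo4, -2.89 for Mmrn2, -2.80 for Myct1 and -4.75 for Adgrl4, and without EPZ5676 1 Mmrn2 stood at -3.42 in EPZ5676 explants. The call of Mmrn2 was lost without EPZ5676 3 in that comparison (edgeR adjusted p = 0.0524) and in 6 of 9 fits for control explants (up to 0.128), and that of Myct1 in 5 of 9 fits for EPZ5676 explants (up to 0.104). Icam2, an adhesion protein of endothelium and platelets, passed in EPZ5676 explants (-1.72 ± 0.60, edgeR adjusted p = 0.0433, lost in 6 of 9 fits) and not in control explants (-1.25 ± 0.58, 0.116), where it passed without Control 1 at -2.09.

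The genes Eng and Clec14a did not pass in either culture. Eng, a co-receptor for ligands of the TGF-beta family that mesenchymal cells and macrophages also make, was at 11.90, 9.13 and 7.77 TPM in EPZ5676 explants, 12.68, 7.50 and 6.82 TPM in control explants and 12.36, 13.68 and 12.07 TPM in fresh lung. Its log2 fold change was -0.28 ± 0.20 in EPZ5676 explants (edgeR adjusted p = 0.29) and -0.48 ± 0.20 in control explants (0.0832, and 0.00782 without Control 1), and its exons overlap those of Fpgs on the opposite strand. Clec14a, a lectin-like endothelial surface protein, was at 4.65, 4.03 and 2.90 TPM in EPZ5676 explants, 7.35, 2.74 and 1.77 TPM in control explants and 6.16, 3.31 and 4.85 TPM in fresh lung. The groups overlapped, with log2 fold changes of -0.29 ± 0.41 and -0.27 ± 0.40 (edgeR adjusted p = 0.604 and 0.633; 0.0354 for control explants without Control 1, at -0.96).

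**Figure D2:**
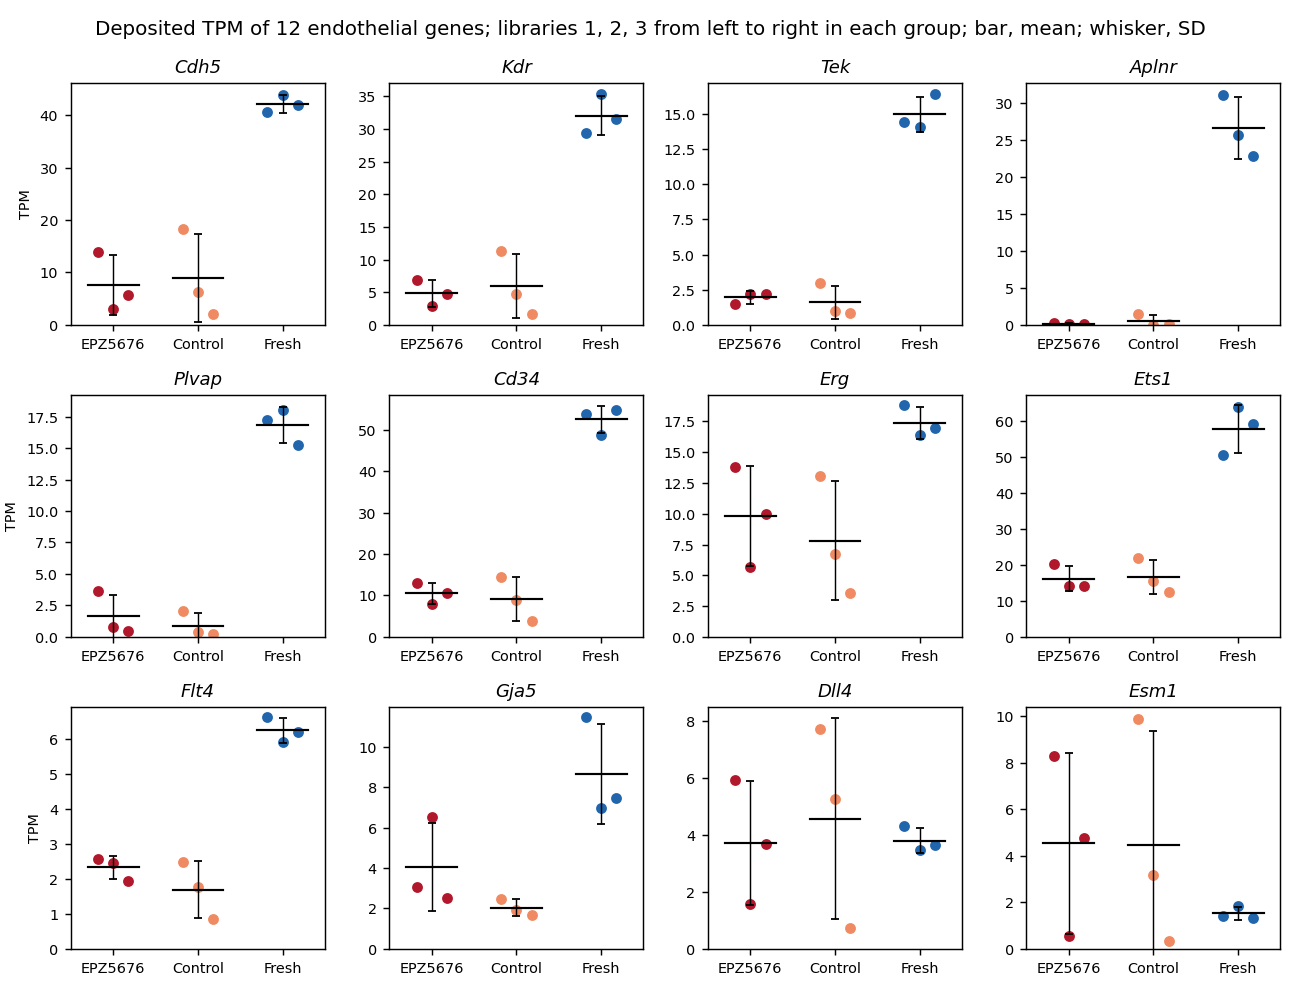
Deposited TPM (y axis, each panel on its own scale from 0) of 12 endothelial genes in EPZ5676 explants, control explants and fresh E11.5 lung; points are libraries 1 to 3 from left to right, bars means and whiskers SD over 3 libraries (cut at 0). For Cdh5, Kdr, Tek, Aplnr, Plvap, Cd34, Erg, Ets1, Flt4 and Gja5 the explant libraries lie below the fresh ones, while those of Dll4 and Esm1 lie on both sides of them.

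Of the secreted proteins 1 of 3 fell in each culture, where 17.9% of all genes fell in EPZ5676 explants and 16.6% in control explants. Egfl7, a matrix protein made by endothelium, was at 26.21, 17.06 and 15.86 TPM in EPZ5676 explants, 29.02, 11.42 and 11.13 TPM in control explants and 74.32, 74.93 and 70.13 TPM in fresh lung. It fell by 1.80 ± 0.27 in EPZ5676 explants and 2.08 ± 0.27 in control explants on the log2 scale (edgeR adjusted p = 4.9e-04 and 2.73e-04), and shares exonic bases with Agpat2 on the opposite strand. Apln, the ligand of the receptor that was nearly gone, did not pass the test. It was at 4.73, 3.26 and 3.0 TPM in EPZ5676 explants, 5.07, 3.05 and 4.67 TPM in control explants and 3.23, 4.1 and 2.95 TPM in fresh lung, with log2 fold changes of 0.11 ± 0.26 and 0.37 ± 0.26 (edgeR adjusted p = 0.77 and 0.29).

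Esm1, a proteoglycan secreted by sprouting tip cells (chromosome 13, 113209659 to 113218098, GRCm38), varied widely among the explants. It was at 8.29, 0.55 and 4.75 TPM in EPZ5676 explants, 9.87, 3.19 and 0.32 TPM in control explants and 1.43, 1.82 and 1.32 TPM in fresh lung. In each culture 2 libraries lay above all fresh ones and 1 below, so the groups overlapped. Counts gave a log2 fold change of 1.55 ± 1.03 in EPZ5676 explants (edgeR adjusted p = 0.264) and 1.51 ± 1.03 in control explants (0.281), or 0.84 without EPZ5676 1 and 0.27 without Control 1. The low libraries held 5 and 3 expected counts.

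Of the 4 arterial genes 1, Gja5, fell in each culture (group median -0.54 in EPZ5676 explants and -0.39 in control explants). That count is near the share of all genes that fell, 17.9% in EPZ5676 explants and 16.6% in control explants. Gja5, a gap junction protein of arterial endothelium and heart muscle, was at 3.07, 6.54 and 2.52 TPM in EPZ5676 explants, 2.49, 1.93 and 1.67 TPM in control explants and 11.47, 6.95 and 7.49 TPM in fresh lung. By TPM the level in EPZ5676 2 came close to the lowest fresh library, and by CPM the EPZ5676 explants overlapped fresh lung. Its log2 fold change was -1.06 ± 0.35 in EPZ5676 explants (edgeR adjusted p = 0.0341, lost in 4 of 9 fits with a library left out, up to 0.128) and -2.04 ± 0.37 in control explants (0.0019). Its exons overlap those of Gpr89 on the opposite strand, a gene with a mean count of 217, and without a known strand setting their reads cannot be told apart.

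Gja4, the other arterial gap junction protein of the list, was at 4.22, 0.28 and 2.11 TPM in EPZ5676 explants, 5.48, 1.5 and 0.13 TPM in control explants and 5.44, 4.32 and 3.81 TPM in fresh lung (log2 fold change -1.03 ± 0.87 and -0.92 ± 0.85, edgeR adjusted p = 0.374 and 0.428; -1.86 without EPZ5676 1 and -2.37 without Control 1). In the explants it ran from near the fresh level to nearly 0. Dll4, the Notch ligand of arteries and tip cells, was at 5.93, 1.56 and 3.68 TPM in EPZ5676 explants, 7.72, 5.27 and 0.74 TPM in control explants and 4.3, 3.48 and 3.63 TPM in fresh lung. Its libraries lay on both sides of the fresh ones, with log2 fold changes of -0.04 ± 0.64 and 0.25 ± 0.63 (edgeR adjusted p = 0.966 and 0.78), and neither sign held in every fit. Efnb2, an ephrin of arterial endothelium that epithelium and mesenchyme also make, was at 47.76, 34.1 and 34.45 TPM in EPZ5676 explants, 48.50, 41.61 and 27.98 TPM in control explants and 29.15, 40.35 and 38.17 TPM in fresh lung. The change on the log2 scale was 0.12 ± 0.16 and 0.15 ± 0.16 (edgeR adjusted p = 0.587 and 0.498), and as the most abundant of the 4 it sets most of their summed level.

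Of the lymphatic genes Flt4, the receptor for the VEGF forms that drive lymphatic growth, fell in both cultures. It was at 2.56, 2.46 and 1.95 TPM in EPZ5676 explants, 2.48, 1.76 and 0.84 TPM in control explants and 6.61, 5.91 and 6.18 TPM in fresh lung, with no overlap. Its log2 fold change was -1.39 ± 0.24 in EPZ5676 explants (edgeR adjusted p = 0.00124) and -1.86 ± 0.25 in control explants (2.98e-04). Prox1, the lymphatic transcription factor, which liver, heart and neuroendocrine cells also make, was at 2.86, 1.09 and 2.06 TPM in EPZ5676 explants, 2.16, 1.94 and 0.53 TPM in control explants and 2.97, 2.40 and 1.83 TPM in fresh lung. The groups overlapped (log2 fold change -0.24 ± 0.40 and -0.58 ± 0.41, edgeR adjusted p = 0.673 and 0.293).

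Of the 7 transcription factors 5 fell in EPZ5676 explants (median log2 fold change -1.84) and 5 in control explants (median -1.53), against 17.9% and 16.6% of all genes. Ets1, an ETS factor also made by leukocytes and mesenchyme, had the smallest error of the 7. It was at 20.26, 14.1 and 14.11 TPM in EPZ5676 explants, 21.95, 15.49 and 12.52 TPM in control explants and 50.43, 63.75 and 59.04 TPM in fresh lung, with log2 fold changes of -1.84 ± 0.13 and -1.76 ± 0.13 (edgeR adjusted p = 6.65e-06 and 1.16e-05). Fli1, an ETS factor of endothelium and megakaryocytes, was at 5.31, 4.54 and 3.51 TPM in EPZ5676 explants, 8.37, 7.17 and 3.05 TPM in control explants and 14.64, 13.82 and 10.24 TPM in fresh lung (-1.45 ± 0.22 and -1.24 ± 0.22, edgeR adjusted p = 5.2e-04 and 0.00147). Both genes lay below fresh lung in every explant library.

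Erg, the ETS factor most restricted to endothelium, had the smallest change of the ETS factors. It was at 13.83, 5.71 and 9.94 TPM in EPZ5676 explants, 13.08, 6.77 and 3.57 TPM in control explants and 18.84, 16.37 and 16.95 TPM in fresh lung. It showed a log2 fold change of -0.85 ± 0.37 in EPZ5676 explants (edgeR adjusted p = 0.0928, and past the threshold without Control 1 or Control 3) and -1.04 ± 0.37 in control explants (0.0499, lost in 6 of 9 fits, up to 0.128). Hhex, a homeobox factor of early endothelium, liver and thyroid, was at 5.97, 6.35 and 3.77 TPM in EPZ5676 explants, 4.83, 3.53 and 4.5 TPM in control explants and 7.57, 7.58 and 6.88 TPM in fresh lung. Every explant library lay below the fresh ones by TPM, but the gene did not pass (-0.39 ± 0.29 and -0.72 ± 0.29, edgeR adjusted p = 0.31 and 0.0748; 0.0338 in control explants without Control 3).

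The SOX factors were low and uneven in culture. Sox17 was at 0.38, 0.16 and 0.34 TPM in EPZ5676 explants, 1.69, 0.51 and 0.07 TPM in control explants and 4.23, 2.92 and 3.87 TPM in fresh lung, with 6, 1 and 2 expected counts in EPZ5676 explants. Its log2 fold change was -3.21 ± 0.78 in EPZ5676 explants (edgeR adjusted p = 0.00808; -4.02 without EPZ5676 1) and -1.89 ± 0.68 in control explants (0.048; -3.92 without Control 1, and lost in each of the other 8 fits, up to 0.129). Sox18 was at 1.82, 0.58 and 1.47 TPM in EPZ5676 explants, 3.59, 2.20 and 0.56 TPM in control explants and 6.78, 6.29 and 5.57 TPM in fresh lung (-2.25 ± 0.50 and -1.53 ± 0.47, edgeR adjusted p = 0.00479 and 0.0251, the second lost in 4 of 9 fits, up to 0.068). Sox7 was at 2.94, 0.54 and 1.43 TPM in EPZ5676 explants, 4.26, 1.38 and 0.13 TPM in control explants and 6.74, 8.17 and 7.26 TPM in fresh lung. It passed in EPZ5676 explants (-2.16 ± 0.76, edgeR adjusted p = 0.0487, lost in 6 of 9 fits; -2.84 without EPZ5676 1) and not in control explants (-1.94 ± 0.74, 0.0697; -3.20 and 0.0114 without Control 1).

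The explant libraries kept the same order for most of the genes. By CPM, EPZ5676 1 was the highest of its group for 34 of the 40 genes (85% against 36.2% of all genes) and EPZ5676 2 the lowest for 27 (67.5% against 36.3%). Control 1 was the highest control explant for 36 (90% against 36.5%) and Control 3 the lowest for 35 (87.5% against 38.6%). In fresh lung no order of the 3 libraries held for more than 11 of the 40 genes. The genes are not independent replicates of this order.

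By summed TPM, erythroid transcripts and those of megakaryocytes and platelets followed the order of the explant libraries, while those of macrophages and leukocytes did not. The 10 erythroid genes summed to 1062, 75.2 and 550.8 TPM in EPZ5676 explants, 1203.7, 263.0 and 113.0 TPM in control explants and 18130.2, 25028.7 and 23159.7 TPM in fresh lung, and 10 and 9 of them fell in EPZ5676 and control explants. Their most abundant gene, the embryonic globin Hbb-y, was at 44.51 to 485.82 TPM in EPZ5676 explants, 53.9 to 371.84 TPM in control explants and 7907.74 to 10019.41 TPM in fresh lung. The 11 megakaryocyte and platelet genes, which mark cells that also make Pecam1, Vwf, Esam, Icam2 and Fli1, summed to 6.3 to 16.8 TPM in EPZ5676 explants, 3.4 to 9.0 TPM in control explants and 52.1 to 65.2 TPM in fresh lung. All 4 that could be tested fell in both cultures, Pf4 was the most abundant, and Gp9 was listed at 0 in all EPZ5676 explants, Control 1 and Control 2. The 10 macrophage and leukocyte genes went the other way: all 10 rose in both cultures, to sums of 900.1 to 1071.0 TPM in EPZ5676 explants and 657.9 to 777.4 TPM in control explants, against 39.6 to 63.8 TPM in fresh lung. The 10 lung epithelium genes summed to 1627.5 to 2457.8 TPM in EPZ5676 explants and 1196.9 to 1776.5 TPM in control explants, against 417.7 to 450.9 TPM in fresh lung, and 9 and 8 of them rose. Of 8 tested genes of mural cells, the pericytes and smooth muscle around vessels, 2 rose and 1 fell in each culture, with sums of 124.3 to 162.3 TPM in EPZ5676 explants, 106.2 to 184.0 TPM in control explants and 128.7 to 139.3 TPM in fresh lung. Over all genes tested 22.1% rose and 17.9% fell in EPZ5676 explants, and 21.1% and 16.6% in control explants, so the mural counts were near those shares. The part of all these cells in the endothelial values was not tested.

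**Figure D3:**
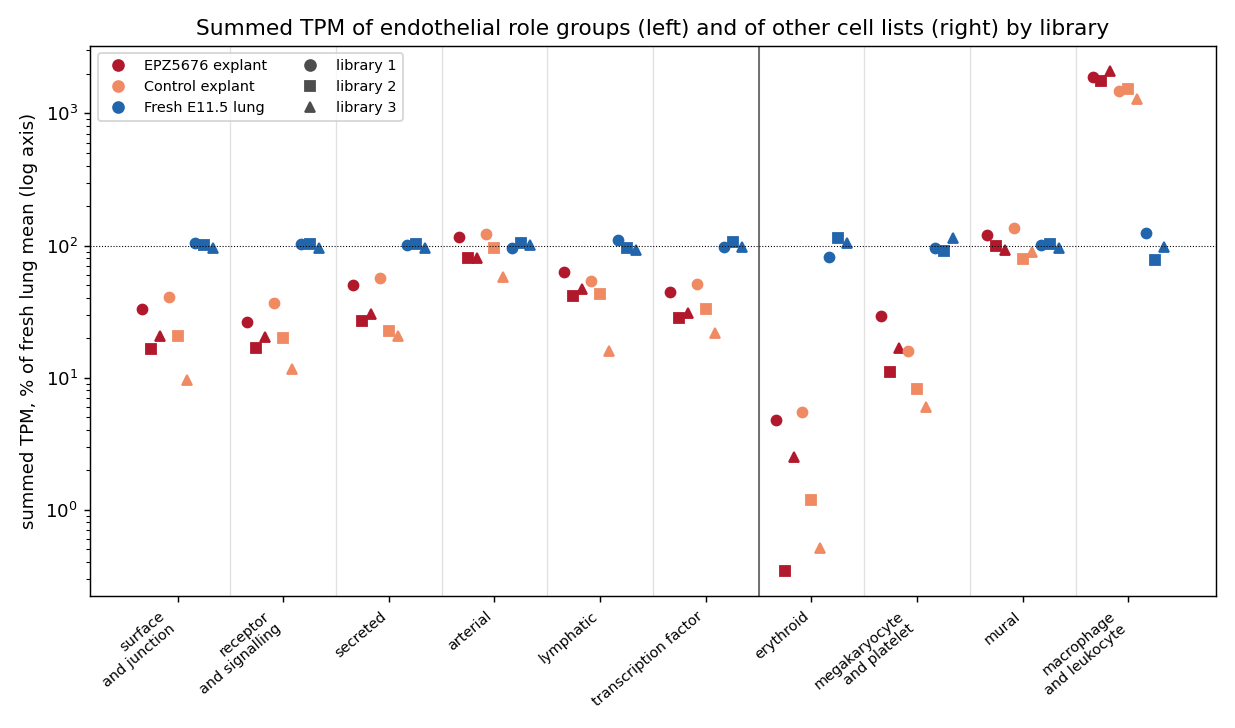
Summed TPM of each library as a percent of the fresh lung mean (y axis, log scale) for the 6 role groups of endothelial genes (left) and 4 lists of other cells (right); colours are groups and symbols libraries 1 to 3. Surface genes stood at 33.3%, 16.4% and 20.8% in EPZ5676 explants and 40.7%, 20.6% and 9.6% in control explants, while the arterial sum, set mostly by Efnb2, stood at 115%, 80.4% and 80.9% and at 121%, 95.2% and 57.7%.

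EPZ5676 and control explants were compared directly, which bears on whether DOT1L inhibition added to or offset the fall. None of the 40 genes passed edgeR's test (lowest adjusted p = 0.634), as was so for all genes tested, of which 0% were called lower and 0% higher. At an unadjusted p under 0.05 there was 1 of the 40, Gja5, on the higher side, where 4.14% of all genes were higher and 2.8% lower. By TPM, Gja5 was also the 1 gene for which the EPZ5676 libraries all lay above the control ones. By CPM the EPZ5676 libraries all lay above the control ones for 1 of the 40 genes and all below for 0, against 5.79% and 4.45% of all genes. DESeq2 called 83 genes of the whole table in this comparison, and 0 of the 40.

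The 6 genes with the smallest p-values went both ways. Gja5 had a log2 fold change of 0.98 ± 0.38 (95% interval 0.15 to 1.81, edgeR adjusted p = 0.634), Flt4 of 0.46 ± 0.26 (-0.10 to 1.03) and Myct1 of 0.69 ± 0.48 (-0.37 to 1.75). Sox17 had -1.31 ± 0.86 (-3.21 to 0.58), Emcn -0.83 ± 0.58 (-2.13 to 0.46) and Sox18 -0.71 ± 0.52 (-1.86 to 0.44), with edgeR adjusted p-values of 0.784 to 0.856 for these 5. Leaving out 1 library turned the sign of 29 of the 40 estimates in 1 or more fits, Sox17 among them. Over the 40 genes 26 had estimates below 0 and 14 above, with a median of -0.10. The intervals were wide, with a median half-width of 1.02 on the log2 scale, and for 28 of the 40 genes they reached a 2-fold difference in one direction or the other. For these genes the spread between libraries left room for a difference of that size.

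To describe the makeup of what endothelial RNA remained, each gene was set against the summed TPM of 5 defining genes (Pecam1, Cdh5, Kdr, Tie1 and Erg). That sum was 50.2, 17.3 and 29.1 TPM in EPZ5676 explants, 63.5, 28.1 and 9.83 TPM in control explants and 144.4, 142.67 and 134.77 TPM in fresh lung. The 5 genes did not fall evenly. Kdr made up 13.8%, 16.6% and 16.0% of the sum in EPZ5676 explants, 17.74%, 17.04% and 17.40% in control explants and 20.3%, 24.7% and 23.4% in fresh lung. Erg made up 27.6%, 33.0% and 34.1% in EPZ5676 explants, 20.6%, 24.1% and 36.3% in control explants and 13.05%, 11.47% and 12.58% in fresh lung. Kdr thus lay below fresh lung and Erg above it in every explant library, without a test.

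Because the sum fell, most genes of the whole table lay higher relative to it in culture. In EPZ5676 explants 94.3% of the other genes tested had all 3 libraries above the fresh ones on this scale and 0.488% had all 3 below, and in control explants 91.7% and 0.403%. Of the other 35 endothelial genes 15 were above, 8 below and 12 overlapping in EPZ5676 explants, and 11 above, 4 below and 20 overlapping in control explants. Being above on this scale is therefore no result about a gene, Esm1, Dll4 and Apln included, while Aplnr and Plvap fell more than the marker sum did. Aplnr was at 0.419%, 0.694% and 0.618% of the sum in EPZ5676 explants, 2.38%, 0% and 0.61% in control explants and 21.6%, 18.1% and 17% in fresh lung. Plvap was at 7.22%, 4.69% and 1.61% in EPZ5676 explants, 3.25%, 1.35% and 2.34% in control explants and 12%, 12.6% and 11.3% in fresh lung. No test was made of these ratios, and Control 3 had the smallest sum.

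**Figure D4:**
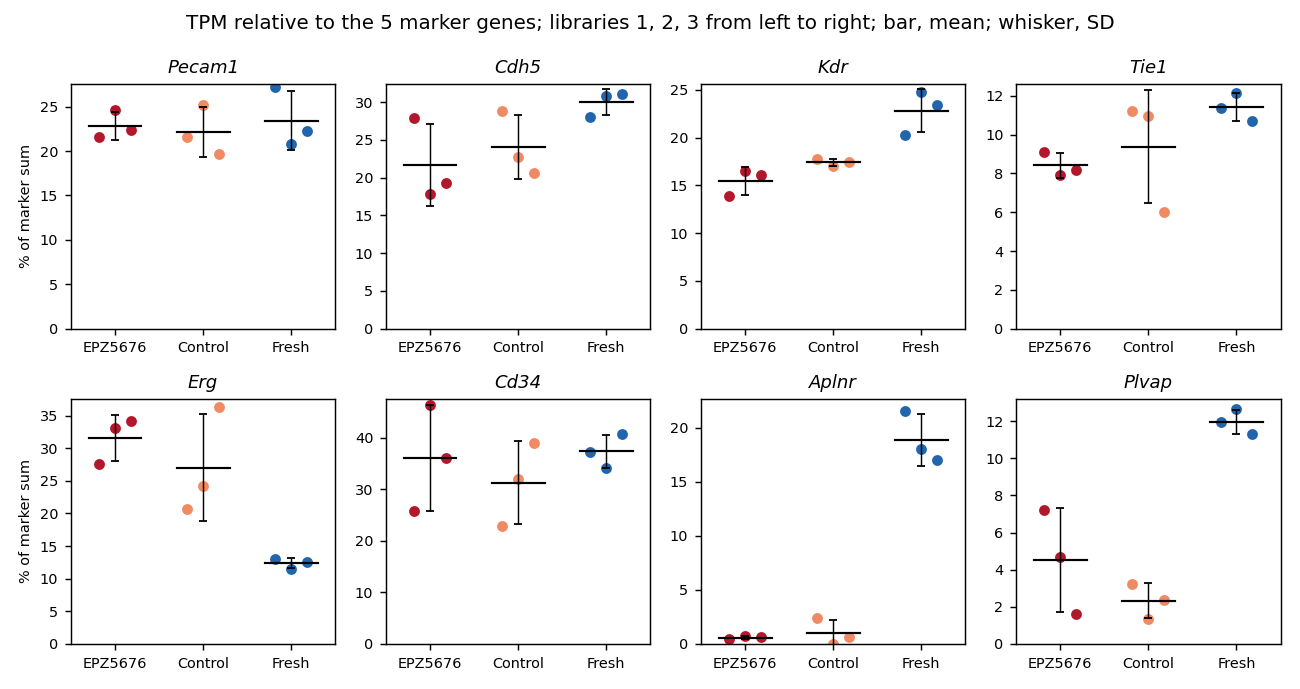
TPM of 8 genes as a percent of the summed TPM of Pecam1, Cdh5, Kdr, Tie1 and Erg in the same library (y axis, each panel on its own scale); points are libraries 1 to 3 from left to right, bars means and whiskers SD over 3 libraries (cut at 0). Aplnr, Plvap and Kdr lie lower in every explant library than in fresh lung and Erg higher, while Pecam1 and Cd34 overlap.

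Beyond the 40, a list of 55 other endothelial genes was examined, of which 53 could be tested. Of these 22 were lower and 4 higher in EPZ5676 explants (median log2 fold change -0.78), where 17.9% and 22.1% of all genes were. In control explants 24 were lower and 3 higher (median -0.76), against 16.6% and 21.1% of all genes. Among the early blood and endothelial factors, Tal1 was at 1.07, 0.30 and 0.79 TPM in EPZ5676 explants, 1.56, 0.49 and 0.15 TPM in control explants and 5.73, 8.95 and 6.71 TPM in fresh lung (log2 fold change -3.28 and -3.26, edgeR adjusted p = 0.00131 and 0.0015). Gata2 fell by 2.60 and 3.35 on the log2 scale in EPZ5676 and control explants (edgeR adjusted p = 0.00345 and 0.0014). Both factors also act in blood cells. Thbd (thrombomodulin), which mesothelium and macrophages also make, rose to 82.99, 102.42 and 70.93 TPM in EPZ5676 explants and 96.09, 78.75 and 78.2 TPM in control explants, against 28.93, 15.72 and 21.13 TPM in fresh lung (log2 fold change 1.98 and 1.99, edgeR adjusted p = 1.13e-04 and 1.41e-04). Tmem100 rose too, by 2.24 and 2.03 (edgeR adjusted p = 6.95e-04 and 0.00148). Apart from its arterial, venous and lymphatic genes, the list held 35 tested genes. Of these 18 fell and 2 rose in EPZ5676 explants, and 20 fell and 2 rose in control explants. Thbd and Tmem100 were those 2 in each culture.

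Of 9 other arterial genes tested 1 fell and 1 rose in EPZ5676 explants, and 2 fell and 1 rose in control explants. Hey2, a Notch target, fell by 2.43 and 2.51 on the log2 scale (edgeR adjusted p = 0.00358 and 0.00359), and Cxcr4, the receptor for CXCL12 on endothelium and leukocytes, rose by 1.05 and 1.03 (0.0273 and 0.032). Of 3 venous genes Nrp2, a VEGF co-receptor, fell in each culture by 0.54 and 0.58 (0.00399 and 0.00293). Of 6 other lymphatic genes 2 fell and 1 rose in EPZ5676 explants, and 1 fell and 0 rose in control explants. Lyve1, a hyaluronan receptor of lymphatic endothelium and macrophages, was at 0.35, 2.1 and 0.93 TPM in EPZ5676 explants, 0.75, 0.38 and 1.04 TPM in control explants and 6.32, 1.81 and 3.06 TPM in fresh lung (log2 fold change -1.83 and -2.81, edgeR adjusted p = 0.0394 and 0.00873). Its highest EPZ5676 library lay above its lowest fresh library. Other genes of this list went up, and its log2 fold changes ran from -1.83 to 2.79 in EPZ5676 explants and from -2.81 to 2.48 in control explants. The 6 genes summed to 60.7 to 71.26 TPM in EPZ5676 explants, 51.36 to 70.29 TPM in control explants and 41.68 to 52.94 TPM in fresh lung. Over all genes tested 17.9% fell and 22.1% rose in EPZ5676 explants, and 16.6% and 21.1% in control explants. With lists this short, the arterial, venous and lymphatic counts do not set them apart from all genes.

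Several ligands of vessel signalling rose. Of 9 tested, among them Pdgfb, which acts on mural cells, 5 rose and 0 fell in EPZ5676 explants. There 22.1% and 17.9% of all genes rose and fell. In control explants 5 rose and 1 fell, against 21.1% and 16.6% of all genes. Vegfd, a ligand of FLT4, was at 34.34, 39.32 and 37.81 TPM in EPZ5676 explants, 39.84, 40.30 and 65.08 TPM in control explants and 2.93, 1.18 and 0.62 TPM in fresh lung. It rose 22.7-fold in EPZ5676 explants (log2 fold change 4.51 ± 0.47, edgeR adjusted p = 1.16e-04) and 30.3-fold in control explants (4.92 ± 0.46, 9.53e-05). Vegfa, the main ligand of KDR, was at 87.0, 110.23 and 93.16 TPM in EPZ5676 explants, 85.02, 105.15 and 90.2 TPM in control explants and 68.63, 70.5 and 73.94 TPM in fresh lung, a rise of 0.55 and 0.56 on the log2 scale (0.0345 and 0.0347).

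Vegfb rose by 0.86 and 1.07 on the log2 scale in EPZ5676 and control explants (edgeR adjusted p = 5e-04 and 1.66e-04), and Pgf, a ligand of FLT1, by 0.79 and 0.58 (0.0045 and 0.0224). Angpt2, the angiopoietin that modulates TEK signalling and that endothelium itself makes, rose by 1.09 and 1.16 (0.00317 and 0.00245), to means of 13.5 TPM in EPZ5676 explants and 12.7 TPM in control explants, against 5.83 TPM in fresh lung. Angpt1, the activating ligand of TEK, had means of 16.6, 17.8 and 16.2 TPM in EPZ5676 explants, control explants and fresh lung and did not pass (0.904 and 0.689). Vegfc did not pass in either culture (log2 fold change -0.64 and -0.19, edgeR adjusted p = 0.0755 and 0.594). The chemokine Cxcl12 fell in control explants (-0.57, edgeR adjusted p = 0.0312) and had -0.42 in EPZ5676 explants (0.0937). The remaining ligand tested, Pdgfb, a growth factor that endothelium sends to mural cells, had log2 fold changes of -0.41 and -0.48 (0.581 and 0.518).

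**Figure D5:**
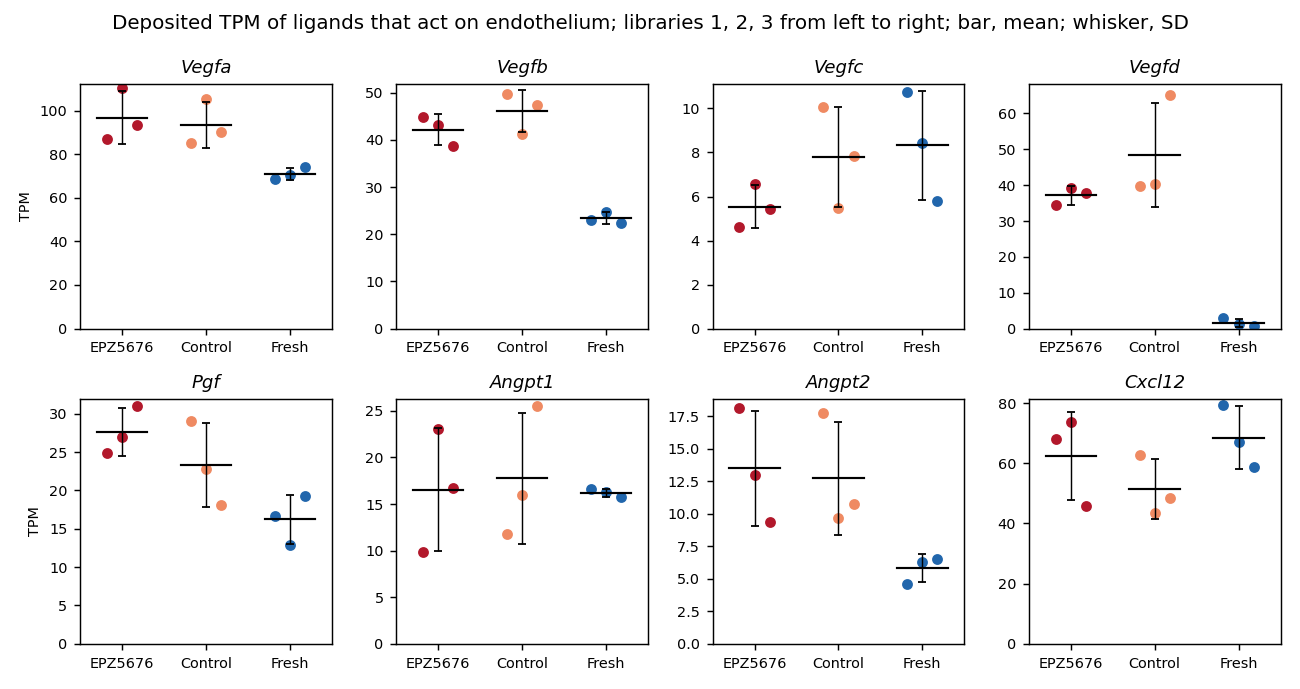
Deposited TPM (y axis, each panel on its own scale from 0) of 8 ligands that act on endothelium in EPZ5676 explants, control explants and fresh E11.5 lung; points are libraries 1 to 3 from left to right, bars means and whiskers SD over 3 libraries (cut at 0). Vegfd lies at 34.34 to 65.08 TPM in explants and at most at 2.93 TPM in fresh lung, and the explant libraries of Vegfa and Vegfb also lie above the fresh ones.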

How the data were processed

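Total RNA of 9 libraries was extracted with TRIzol, and libraries were made from 1 ug with the VAHTS Universal V8 kit, per the labels' protocols. RSEM, Bowtie2 and mm10 are named without version or role, per the submitters' processing notes. Whether counting used strand is not given in the labels or file headers. The authors deposited expected counts per gene, which are estimates, and TPM, scaled by length and depth. Positions and overlaps are from the GRCm38 annotation, the assembly of mm10.

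Expected counts were rounded, filtered with filterByExpr (minimum count 10) and scaled by TMM. All 9 libraries entered 1 fit by group in edgeR 4.0.16 (two-sided quasi-likelihood F test with robust shrinkage and the legacy option) in R 4.3.3, with Benjamini-Hochberg adjustment over 15158 genes and a threshold of 0.05. The fit was tested on simulated data. Replicates differed by more than sampling noise (chi-square per degree of freedom 2.69 to 31.1). Reads are not independent molecules, so low counts are less certain than counting error alone would make them.

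The 40 genes and all lists were chosen with earlier results of these data known. Values per library were given for all arterial, lymphatic and transcription factor genes, and elsewhere for the 4 most abundant genes in fresh lung and those with the largest and smallest change in control explants; Flt1, Tek, Tie1 and several others were added. For EPZ5676 against control explants the 6 genes with the smallest p are given, and of other lists up to 3 that passed with the largest change, with all ligands. Thbd and Tmem100 were added to these after their values were seen. Alternatives were RLE and upper-quartile scaling, leaving out haemoglobin and mitochondrial genes, DESeq2 1.42.0, edgeR's newer method, the replicate number as a block, limma 3.58.1 on log2(TPM + 1) and log2(TPM + 0.1), no filter on low values, a minimum of 50 counts in 3 libraries, fits restricted to the 6 libraries of a comparison, each library left out, and a 2-fold limit. Figures were drawn with matplotlib 3.10.9.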

Additional observations from a re-analysis of the deposited data

How the results depend on the processing

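Under every alternative run the 40 genes had 0 rises against fresh lung and 0 calls between EPZ5676 and control explants. The number that fell was 21 to 30 in EPZ5676 explants and 20 to 32 in control explants, including 21 to 30 and 20 to 32 with 1 library left out. Of the main calls 21 of 29 and 20 of 27 were kept in all 9 such fits. With no filter on low counts 21 genes fell in each culture, and Pecam1, Cdh5, Mmrn2, Robo4 and Tie1 lost both calls, as did Nos3, Icam2 and Sox7 in EPZ5676 explants and Erg in control explants. DESeq2 called 29 and 28, losing Sox7 in EPZ5676 explants. A minimum of 50 counts in 3 libraries left 34 genes, without Myct1, Sox17 and Sox18. Limma called 28, 24 and 24 genes in EPZ5676 explants and 31, 28 and 25 in control explants on log2(TPM + 1), log2(TPM + 0.1) and log2(TPM + 1) without a filter. The calls lost were those of Icam2, Adgrl4, Myct1, Robo4, Sox7 and Gja5 in EPZ5676 explants and, without a filter, of Erg, Fli1 and Sox18 in control explants. A fit to the 6 libraries compared lost Gja5 in EPZ5676 explants and Sox17 in control explants. The cause was not tested.

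Whether replicate numbers pair the libraries is not settled (correlation of same-numbered deviations -0.102 to 0.457). The highest value was between EPZ5676 1 and Control 1, while libraries 2 and 3 of these groups gave 0.079 and -0.047. Differently numbered EPZ5676 and control libraries gave -0.361 to 0.265. With the number as a block, 30 genes fell in EPZ5676 explants, with Erg added, and 30 in control explants, with Eng, Nos3 and Sox7 added.

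Against fresh lung the sign turned only for genes that had not passed. For control explants Dll4 had -0.0695 on log2(TPM + 1), -0.25 on log2(TPM + 0.1) and -0.0695 without a filter on that scale, and -0.26 to 0.73 with a library left out, and Clec14a had -0.96 to 0.031. For EPZ5676 explants the leave-one-out ranges were -0.50 to 0.32 for Dll4, -0.020 to 0.20 for Efnb2, -0.064 to 0.23 for Apln and -0.50 to 0.026 for Prox1. Between EPZ5676 and control explants, where no gene passed, the sign of 29 of the 40 turned with a library left out. Of the 6 genes with values given, Sox17 was the 1 that turned, over -2.13 to 0.72.

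Depth limits the rarest genes: Aplnr and Sox17 had at most 6 counts in every EPZ5676 explant.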
